A study of Mus musculus with 4 samples.

Results

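Neural progenitors of the fetal mouse brain, and the Notch signal that holds them as progenitors, were followed through 9 genes: Notch1, Dll1, Hes1, Hes5, Neurog2, Eomes, Sox2, Pax6 and Nes. They were taken from the arrays by gene name, whatever their values, and make up 9 of 28104 named genes and 11 of 41174 probes. RNA came from fetal brains of C57BL/6J mice and was measured on 4 arrays of 1 slide, each read in the dyes Cy3 and Cy5. In the food deprivation group (FD) the dams went without food overnight on gestation day 17. In the food restriction group (FR) they received 50% of the control chow from gestation day 10 to day 17, and fetuses were delivered by caesarean section on day 18, a day stated for FR alone. Control dams ate the same chow freely. Every pool held RNA of 5 fetuses. Each treated pool was hybridised together with control RNA on 2 arrays, array 1 with the treated pool in Cy5 and array 2 with it in Cy3. Whether FD and FR were set against 1 common control pool is not given, so the controls are named by the arrays they lie on. The study asks, by its title, which genes of the fetal brain may link maternal undernutrition to later health.

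In the embryonic cortex, progenitors called radial glia line the ventricle, divide, and give rise to neurons either directly or through intermediate progenitors. Notch is the switch between staying a progenitor and becoming a neuron. A cell that carries more of the ligand Delta activates Notch receptors on its neighbours, the cleaved receptor joins the DNA-binding protein RBPJ, and the complex turns on the Hes repressors, which hold back proneural genes such as Neurog2. Cells in which Neurog2 wins make more Delta, leave the progenitor pool and become neurons. By the end of gestation most cortical neurons have been born and progenitors begin to form glia.

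The letters under the values differ in what they can report. Both Pax6 probes carrying that gene name cover coding sequence on chromosome 2 of build mm9, on the plus strand, and each spans more of the genome than its 60 bases, so each crosses a splice junction. They are shown because they read different transcripts. The first, at chr2:105524098-105524949, lies in the short alternative exon of the paired box, and was not well above background on any array. The second, at chr2:105535591-105536463, lies in the coding sequence after the homeobox, which Pax6 transcripts share whether or not they hold that exon. The Hes1 probe, at chr16:30065983-30066278 on the plus strand, also crosses a junction and lies within the coding region of the helix-loop-helix domain. All 3 are in lower case throughout, since no letter is singled out.
Pax6, alternative exon: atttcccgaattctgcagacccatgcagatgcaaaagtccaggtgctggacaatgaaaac
Pax6, shared exons: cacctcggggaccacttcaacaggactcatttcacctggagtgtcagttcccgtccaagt
Hes1: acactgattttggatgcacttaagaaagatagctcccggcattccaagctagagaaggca
The other 8 probes are named by position only, on mm9: Notch1 at chr2:26314772-26314830 and chr2:26314830-26314889 (minus strand, side by side), Dll1 at chr17:15504623-15504682 (minus), Eomes at chr9:118394286-118394345, Hes5 at chr4:154336347-154336406, Nes at chr3:87784308-87784367, Neurog2 at chr3:127337805-127337864 and Sox2 at chr3:34550773-34550832 (all plus). The array files give no exon or untranslated region for them.

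Of the members, Hes5 had the largest ratio, so its promoter is shown too. It is the 250 bases before the start of Hes5 in RefSeq, build GRCm38.p6, chr4:154960673-154960922, plus strand. Capitals mark the core letters TGGGAA of the RBPJ site or their reverse complement TTCCCA.
Hes5 promoter: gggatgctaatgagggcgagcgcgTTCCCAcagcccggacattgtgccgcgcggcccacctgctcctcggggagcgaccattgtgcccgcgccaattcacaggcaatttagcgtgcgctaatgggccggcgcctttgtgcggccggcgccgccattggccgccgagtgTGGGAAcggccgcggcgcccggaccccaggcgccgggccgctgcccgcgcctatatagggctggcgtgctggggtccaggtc
The matches lie 226 to 221 and 82 to 77 bases before the start, and both sit in the longer form GTGGGAA on one strand or the other. Over 32851 promoter windows of the same 250 bases, 21.6% held the core on either strand and 5.42% the longer form. Promoter entries were found for 8 of the 9 members (10 entries), and 1 of the 8, Hes5, held the core. Hes1 was the member without an entry, so its promoter was not searched. A match describes letters and not a bound site.

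Each array held 43379 spots other than controls, of which 73.5% to 84.2% were well above background in the treated channel and 71.4% to 85.3% in the control channel. A gene counted as measured where treated and control signal of its probe both passed that scanner flag on each array of the comparison. All ratios are log2 of treated over control, with the sign of the swapped array turned. With 1 pool per condition the design allows no test and no p-value, and the SD given with a mean covers 2 arrays of the same pair of pools. Across all genes the technical SD of such a mean was taken from the difference between arrays. On the log2 scale it was 0.12 for FD and 0.13 for FR. That difference also holds any dye effect of a probe, which cancels in the mean, so this SD can overstate the error of the mean. For FD minus FR, where a dye effect of the probe cancels in each difference, it was 0.10. None of these SDs covers variation between pools, and such variation and a diet effect cannot be told apart. In RNA of a whole organ, fewer cells of a type and less RNA per cell cannot be told apart either. As a check of the labelled tissue, all 7 neuron markers were well above background in every channel.

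Markers of some other cell types differed between a treated pool and its control. All 7 skeletal muscle markers were at least 1.5-fold lower in the FD pool on both arrays, beside 0.123% of all genes, with a median log2 ratio of -2.14. Their mean log2 channel signal was 7.97 and 7.86 in the FD pool on arrays 1 and 2, against 10.06 and 9.94 in its control. On the FR arrays it was 8.35 and 8.54 in the FR pool and 8.34 and 8.55 in its control. The control of the FD arrays thus lay above every other channel, and the FD pool was nearer to the FR arrays than to its own control. Astrocyte markers had a median log2 ratio of -0.28 in FR. Of the 7, 5 were lower and 1 higher on both arrays, beside 27.9% and 28% of all genes. Their mean signal was 8.71 and 9.0 in the FR pool and 8.85 and 9.23 in its control. Markers of the oligodendrocyte lineage had a median of -0.22 in FR, with 4 of 6 lower on both arrays, beside the same 27.9% of all genes. Their mean signal was 9.47 and 9.70 in the FR pool and 9.62 and 9.95 in its control. None of these markers was near 0, since each was well above background in every channel. In FR the neuron markers had a median of -0.12 (3 of 5 measured lower and 1 higher on both arrays). The FR medians of microglia and macrophage, endothelial and eye markers were -0.01, -0.01 and 0.02. The part of any of these cell types in the ratios of the members was not tested.

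After overnight deprivation the member genes leaned slightly below their control, and none was far from it. In all 8 members were measured, Hes5 being left out because its spot on array 1 carried an outlier flag. At 1.5-fold on both arrays, 0 of 8 were higher and 0 of 8 lower, where 0.0947% and 0.123% of all 17950 genes were. At 1.2-fold on both arrays it was again 0 in either direction, against 1.19% higher and 1.07% lower among all genes. Nes, Eomes, Neurog2, Notch1 and Sox2, 5 of 8, were lower on both arrays, a sign that 23.1% of all genes had, and Dll1 alone was higher on both, as 25.8% of all genes were. The median of the 8 was -0.12 (-0.12 on array 1 and -0.09 on array 2), beside 0.01 over all genes. With median centring in place of loess the FD median was -0.053 and 0 of 8 members were lower on both arrays.

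**Figure D1:**
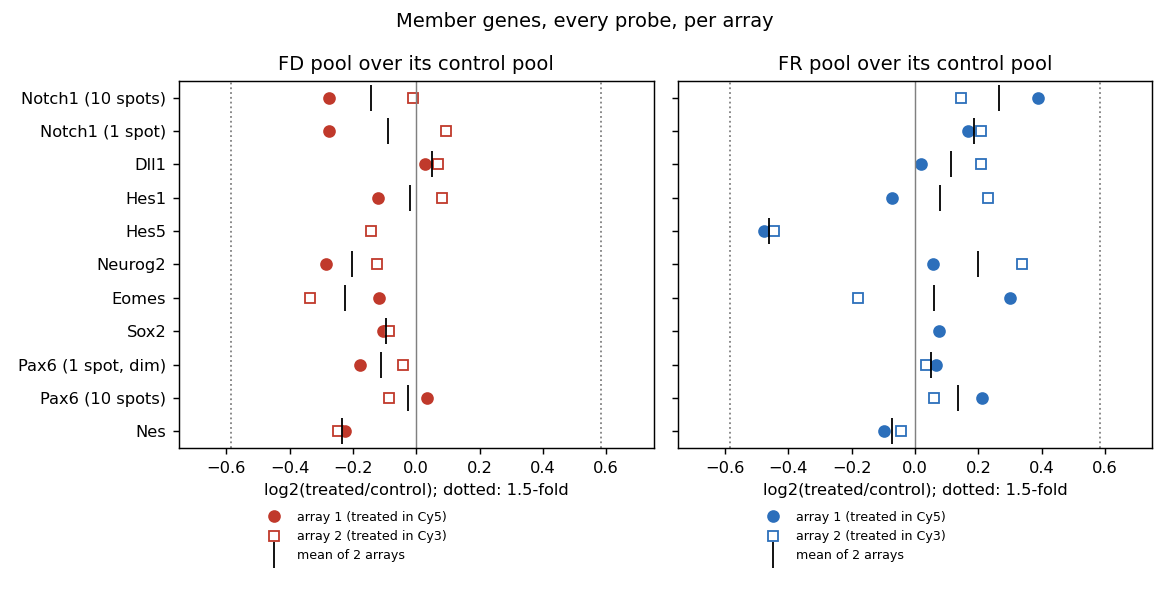
Log2 ratio of treated over control for each of the 11 member probes on array 1 (filled circle) and array 2 (open square), with the mean of both (bar), for FD on the left and FR on the right; dotted lines mark 1.5-fold. No point passes a dotted line, Hes5 in FR lies farthest from 0, and a missing mark is a spot with an outlier flag.

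Nes encodes nestin, the intermediate filament of radial glia and the classic marker of neural stem cells. Its ratio in FD was -0.22 and -0.25, a mean of -0.24 ± 0.02 (SD, n = 2 arrays), or 1.18-fold lower in the FD pool. The Nes probe was printed on 10 spots, of which 7 and 8 were free of outlier flags on arrays 1 and 2. They ran from -0.36 to -0.11 on array 1 and from -0.38 to -0.11 on array 2, so every spot used lay below 0 in both dye orientations. Among all measured genes, 3.84% had a mean at or below that of Nes.

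Eomes (Tbr2), the transcription factor of intermediate progenitors, gave -0.12 and -0.33, with a mean of -0.23 ± 0.15. Neurog2, the proneural factor that drives progenitors towards glutamatergic neurons, gave -0.28 and -0.12, with a mean of -0.20 ± 0.11. Both were lower in the FD pool on both arrays, with means 1.17-fold and 1.15-fold lower, but each rests on 1 spot per array and the arrays differ by about as much as the mean is large. A further probe that the files describe as similar to neurogenin 2, without giving it the gene name, read -0.09 and -0.06.

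The receptor Notch1 was read by both of its neighbouring probes. The probe on 10 spots gave -0.28 on array 1 and -0.01 on array 2, a mean of -0.14 ± 0.19, and the probe on 1 spot gave -0.28 and 0.10, a mean of -0.09 ± 0.26. Array 1 thus put Notch1 lower in the FD pool by both probes, with 10 of 10 spots below 0 (-0.39 to -0.11). Array 2 did not, with 5 of 9 spots below 0 (-0.15 to 0.15), so the lower mean rests on array 1. Dll1, a Delta ligand, was nearly level at 0.03 and 0.07.

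Of the Notch effectors, Hes1, a repressor that keeps progenitors from differentiating, gave -0.12 and 0.08. Hes5, the Hes gene most tied to Notch in neural progenitors, had a usable value on array 2 only, -0.14. With all outlier-flagged spots kept in the fit, Hes5 read -0.01 and -0.10, a mean of -0.06, so its unflagged array 2 value moved too. Hes1 thus had opposite signs on its arrays, and Hes5 read slightly below its control on the only array with a usable value.

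Sox2, the factor that maintains neural stem cells, read -0.10 and -0.09, with a mean of -0.10 ± 0.01, inside the technical SD of 0.12. Pax6, a master regulator of cortical radial glia, read 0.04 and -0.09 on its probe for shared exons, where the 8 and 9 usable spots straddled 0. The dim Pax6 probe in the alternative exon read -0.18 and -0.04, below the level at which the array separates signal from background. A brighter probe that the files assign to Pax6 only in their description read 0.01 and 0.12.

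**Figure D2:**
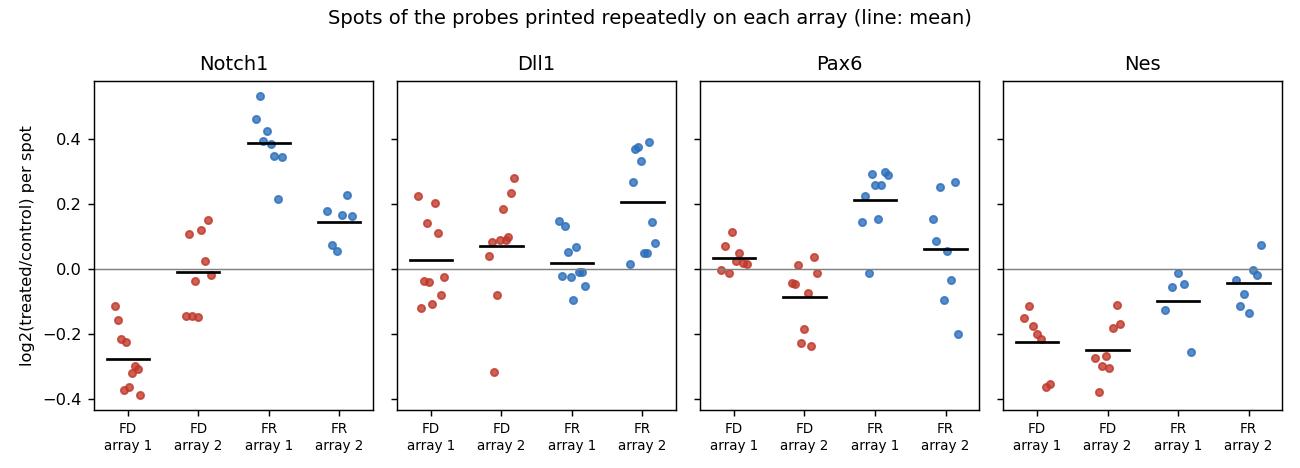
Log2 ratio of treated over control for every usable spot of the 4 member probes printed on 10 spots per array, by array, FD in red and FR in blue, with the mean as a line. Nes spots in FD lie below 0 on both arrays, Notch1 spots lie above 0 on both FR arrays, and Notch1 spots in FD lie below 0 on array 1 and on both sides of 0 on array 2.

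After prolonged restriction the members did not lean one way. Again 8 members were measured, Sox2 being the one left out, because its spot on array 2 carried an outlier flag. At 1.5-fold on both arrays, 0 of 8 were higher and 0 of 8 lower, against 0.566% and 0.453% of all 18547 genes. At 1.2-fold on both arrays, 1 of 8 was lower, Hes5, against 4.3% of all genes, and 0 of 8 higher, against 3.75%. Notch1, Neurog2, Pax6 and Dll1 were higher on both arrays (28% of all genes were) and Hes5 and Nes lower on both (27.9% were). The median was 0.10, with 0.04 on array 1 and 0.10 on array 2, beside 0.00 over all genes. With median centring the FR median was 0.045, with 0 members higher and 0 lower on both arrays, and with the deposited table it was 0.15.

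Hes5 stood farthest from its control. Its log2 channel signal was 12.71 and 13.19 in the FR pool on arrays 1 and 2, against 13.19 and 13.63 in the control of the same arrays. The FR channel was the lower one on both arrays, and the same pool differed between arrays by about as much as both channels of an array did. The ratio was -0.48 and -0.45, a mean of -0.46 ± 0.02, or 1.38-fold lower, which is 3.58 times the technical SD. The closeness of the arrays depends on the fit. With outlier-flagged spots kept, which were spots of other probes, Hes5 read -0.55 and -0.33. Among all genes, 1.93% had a mean at or below it. Hes5 rests on 1 probe and 1 spot per array. Hes1, the other Hes member, gave -0.07 and 0.23, so its arrays had opposite signs.

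Notch1 was the highest member in FR. Its probe on 10 spots gave 0.39 and 0.14, a mean of 0.27 ± 0.17 or 1.2-fold higher, and its probe on 1 spot gave 0.17 and 0.21, a mean of 0.19 ± 0.03. All 8 usable spots on array 1 (0.22 to 0.53) and all 6 on array 2 (0.06 to 0.23) lay above 0, and both probes were higher in both dye orientations. Of all genes, 92.9% had a mean at or below that of Notch1. Dll1 read 0.02 and 0.21 and was clearly above its control on array 2 alone, where its 10 spots ran from 0.02 to 0.39.

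Neurog2 was higher in the FR pool by its named probe, with 0.06 and 0.34 and a mean of 0.20 ± 0.20. The further probe described as similar to neurogenin 2 read -0.28 and -0.01, so the direction of Neurog2 in FR depends on which probe is believed. Eomes had opposite signs, 0.30 and -0.18, the widest spread of any member (SD 0.34). Neither of these genes of the step from progenitor to neuron had a mean in FR beyond the spread between its arrays.

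Pax6 read 0.21 and 0.06 on the probe for shared exons, a mean of 0.14 ± 0.11, close to the technical SD of 0.13. The Pax6 probe known by its description only read 0.51 and 0.01, higher on array 1 alone. Sox2 read 0.08 on array 1. With all outlier-flagged spots kept in the fit it read 0.01 and -0.00. The array 1 value, which carried no flag, thus moved with the fit too. Nes read -0.10 and -0.04, a mean of -0.07 ± 0.04, with 5 of 5 spots on array 1 and 6 of 7 on array 2 below 0. On FR array 1, 5 of the 10 Nes spots carried an outlier flag, and with flagged spots kept the mean of Nes was -0.00.

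**Figure D3:**
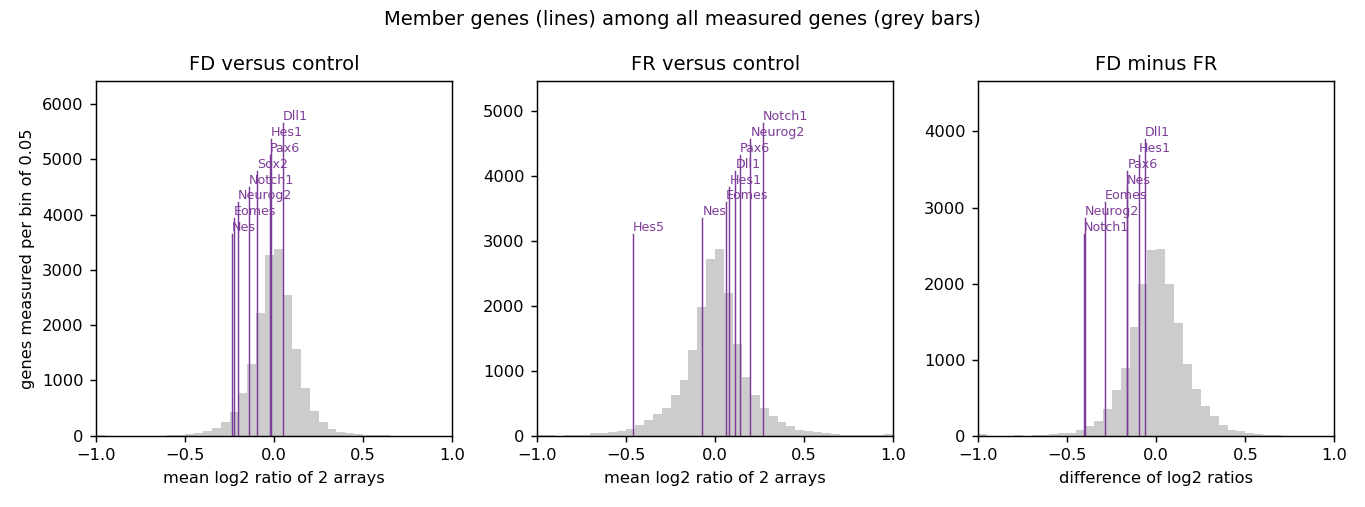
Mean log2 ratio of each measured member (labelled lines) over the histogram of all measured genes in bins of 0.05 (grey bars), for FD, for FR and for the difference FD minus FR; genes beyond -1 or 1 are drawn in the end bins. FD members lie from -0.24 to 0.05, FR members from -0.46 to 0.27, and every member of the difference lies below 0, though with median centring Nes (0.01) and Dll1 (0.08) turn, as Dll1 and Hes1 (0.01 each) do with normexp on all spots.

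The diets were set against each other by subtracting FR from FD ratios between arrays of equal dye orientation, which cancels a dye effect of the probe. In all 7 members could be compared, and 6 of them, Notch1, Neurog2, Eomes, Nes, Pax6 and Hes1, were lower in FD on both arrays, a sign that 29.6% of all 16747 genes had. With median centring 2 were. None was higher on both, against 32.1%. At 1.5-fold on both arrays the members numbered 0 higher and 0 lower, against 0.0776% and 0.275%. At 1.2-fold 1 of 7 was lower, Neurog2, against 2.35%, and 0 of 7 higher, against 2.95%. The median was -0.16 (-0.18 and -0.15 in the 2 orientations), beside 0.00 over all genes, with a technical SD of 0.10 for a single gene.

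For Neurog2 the difference was -0.34 and -0.46, a mean of -0.40 ± 0.09 or 1.32-fold. For Notch1 it was -0.66 and -0.15, a mean of -0.41 ± 0.36, and for its probe on 1 spot -0.44 and -0.11, a mean of -0.28 ± 0.23. Neurog2 was thus alike in both orientations, whereas Notch1 drew most of its difference from array 1. On array 1 the Notch1 spots of FD (-0.39 to -0.11) and FR (0.22 to 0.53) did not overlap. On array 2 (-0.15 to 0.15 and 0.06 to 0.23) they did. Spots of an array are copies of the same probe reading the same pools, so their ranges cover no variation between pools. How many other probes printed on as many spots also failed to overlap was not counted. The gap on array 1 therefore cannot be called unusual or laid to diet. The further probe described as similar to neurogenin 2 gave 0.19 and -0.04, a mean of 0.07, and did not share the difference of the named probe.

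Eomes differed by -0.42 and -0.16, a mean of -0.29 ± 0.19. Nes differed by -0.13 and -0.20, a mean of -0.16 ± 0.06, and Pax6 by -0.18 and -0.15, a mean of -0.16 ± 0.02. Hes1 (-0.05 and -0.15) and Dll1 (0.01 and -0.14) were closer to level in the main run. The mean difference of Hes1 depended on the processing, with -0.24 by the scanner ratio and 0.01 with normexp on all spots. The Hes1 probe was of low signal, at a log2 of 6.57 to 6.80 over all channels. Among all genes, 1.19% lay at or below Notch1, 1.28% at or below Neurog2, 3.70% at or below Eomes, and 12.5% at or below Nes.

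The level in each pool shows how far the controls of both diets lay apart. Levels compare different arrays, so they are read per array number, beside all 23384 probes measured on every array. Those probes differed between FD and FR by a median log2 signal of 0.03 in the treated pools and 0.03 in the controls on array 1, and by -0.23 and -0.25 on array 2. Notch1 differed (FD minus FR) by -0.32 in the treated pools and 0.34 in the controls on array 1, and by -0.44 and -0.29 on array 2. On array 1, which gave most of the Notch1 difference between diets, the controls thus lay as far apart as the treated pools, in the opposite direction. Eomes differed by -0.04 in the treated pools and 0.38 in the controls on array 1, and by -0.41 and -0.25 on array 2, so on array 1 its difference lay on the control side. Neurog2 differed by -0.44 in the treated pools and -0.10 in the controls on array 1, and by -0.77 and -0.31 on array 2, so on both arrays the treated pools lay farther apart than the controls. Nes differed by -0.15 in the treated pools and -0.02 in the controls on array 1, and by -1.04 and -0.84 on array 2, where both lay far beyond the median of all probes.

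**Figure D4:**
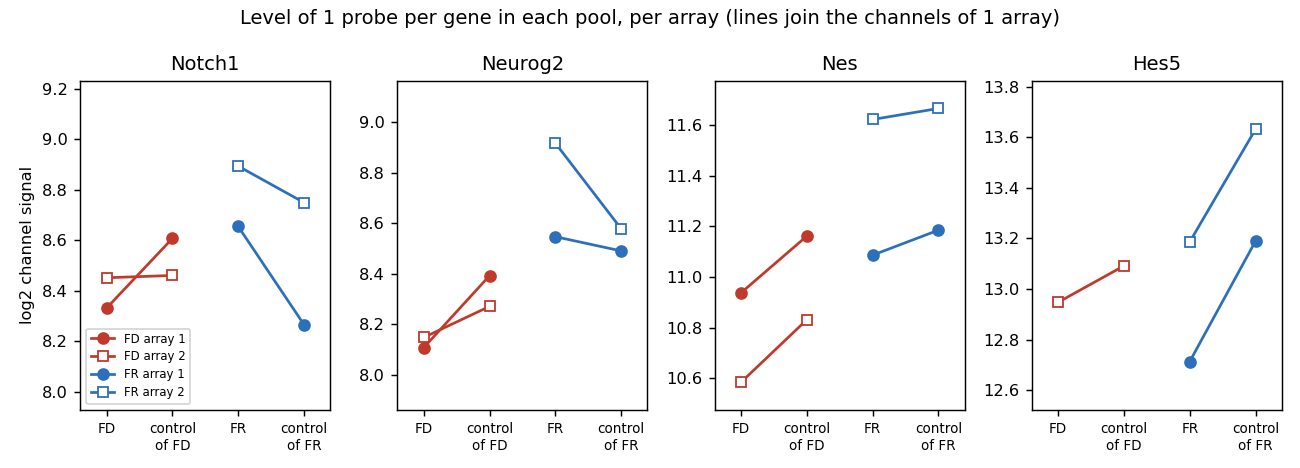
Log2 channel signal of Notch1, Neurog2, Nes and Hes5 in the FD pool, its control, the FR pool and its control; lines join both channels of 1 array, circles are array 1 and squares array 2. Hes5 is lower in FR than in its control on both arrays, and Nes on FR array 2 is brighter in both channels than on the other arrays. The Notch1 control of FD lies above that of FR on array 1 (by 0.34, beside a median of 0.03 over all probes). On array 2 the Notch1 controls differ by -0.29, close to the median of -0.25 over all probes.

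Other genes of the pathway gave no joint direction in FD. Of 27 further Notch pathway genes, ligands, receptors, modifying and cleaving enzymes, 26 were measured, with a median of 0.00. On both arrays 6 were higher and 7 lower (23.1% and 26.9%, beside 25.8% and 23.1% of all genes). Among them 0 passed 1.5-fold. The largest was Adam17, a protease able to cleave Notch, at -0.41 and -0.38. In FR, 24 were measured, 9 higher and 7 lower on both arrays (37.5% and 29.2%, beside 28% and 27.9% of all genes). Their median was 0.05, which became -0.01 with median centring and -0.00 with normexp on all spots. The receptors Notch2 (0.60 and 0.11) and Notch3 (0.43 and 0.15) and the glycosyltransferase Mfng (0.44 and 0.28), which modifies Notch, were higher on both FR arrays, as Notch1 was. In FD the same 3 genes had means of -0.07, 0.09 and -0.04. Rbpj itself, the DNA-binding partner named with the Hes5 promoter, is no gene of the naming rule. It was looked up after the values were seen. Rbpj read -0.26 and -0.27 in FR, and -0.36 and 0.20 in FD, where its arrays had opposite signs.

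Among 10 Notch target and Id repressor genes, 8 were measured in FD. On both arrays 1 was higher and 4 lower (12.5% and 50%, beside 25.8% and 23.1% of all genes). In FR 6 were measured, 2 higher and 3 lower (33.3% and 50%, beside 28% and 27.9%). The FD median was -0.05 and turned to 0.02 with median centring and 0.03 with outlier-flagged spots kept, and the FR median was -0.02 and turned to 0.03 with flagged spots kept. Heyl, a Notch target of the Hey family, was -0.30 and -0.25 in FR. Nrarp, which is induced by Notch and dampens it, was 0.37 and 0.07 in FR. The Id proteins hold back proneural factors by binding their partners, and Id2 (-0.05 and -0.29) and Id4 (-0.06 and -0.26) were lower on both arrays of FD. In FR the Notch targets Heyl and Nrarp thus lay on opposite sides of 0, while Hes5 was lower and Hes1 had opposite signs on its arrays. Of the genes of this list, 0 passed 1.5-fold in either diet. Of 9 proneural and neuronal helix-loop-helix factors and partners, 6 were measured in each diet. In FD 1 was higher and 2 lower on both arrays (16.7% and 33.3%, beside 25.8% and 23.1% of all genes), with a median of 0.00. In FR 2 were higher and 1 lower (33.3% and 16.7%, beside 28% and 27.9%). The FR median was 0.08, with -0.03 on array 1 and 0.07 on array 2, so its sign rests on array 2. The FD median was -0.07 on array 1, -0.02 on array 2 and -0.06 with outlier-flagged spots kept. Bhlhe22, a factor of projection neurons, was -0.30 and -0.21 in FR, Insm1, a factor of intermediate progenitors, was 0.03 and 0.38, and Neurod2, a factor of neuronal differentiation, was -0.03 and 0.37.

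Radial glia and progenitor genes differed from this in FR. Of 19 genes, 16 were measured there, and 10 were higher and 1 lower on both arrays (62.5% and 6.25%, beside 28% and 27.9% of all genes), with a median of 0.12. That median was above 0 under each alternative run, but its size ranged from 0.04 with median centring to 0.21 without array 2, and it was 0.07 with the mean of all probes of a gene. Nr2e1 (Tlx), a nuclear receptor of neural stem cells, was 0.49 and 0.26, and Emx2, which patterns the cortex, was 0.29 and 0.40. Gli3, the Hedgehog pathway factor, was 0.73 and 0.11, so its size depended on the array. In FD the list of 15 measured genes had 2 higher and 3 lower on both arrays (13.3% and 20%, beside 25.8% and 23.1% of all genes). Its median was -0.01, which turned to 0.08 with median centring and 0.09 without array 2. For FD minus FR, 10 of 15 were lower on both arrays and 0 higher, beside 29.6% lower and 32.1% higher of all genes. Of the 15, 4, Nr2e1, Emx2 and Gli3 among them, were at least 1.2-fold lower in FD than FR, beside 2.35% of all genes. The median of that difference was -0.07, and it turned to 0.03 with median centring.

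Genes of proliferation leaned the other way in FD. Of 10 such genes 9 were measured, with 0 higher and 6 lower on both arrays (66.7%, beside 23.1% of all genes) and a median of -0.18, which was below 0 under each alternative run, but became -0.07 with median centring and -0.12 without array 2. Top2a, the topoisomerase of dividing cells, was -0.39 and -0.12, the cyclin Ccnd1 -0.19 and -0.21, and Mki67, the antigen of cycling cells, -0.26 and -0.12. In FR, 1 of 9 was higher and 2 lower (11.1% and 22.2%, beside 28% and 27.9% of all genes). The median there was -0.02, and the mitotic kinase Aurkb was 0.31 and 0.12. All of these are under 1.5-fold, and Nes, Neurog2 and Eomes of the members were of the same size in FD.

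Of 11 newborn and projection neuron genes measured in FD, 1 was higher and 5 lower on both arrays (9.09% and 45.5%, beside 25.8% and 23.1% of all genes). Their median was 0.00, with -0.05 on array 1, -0.08 on array 2, -0.06 with the mean of all probes of a gene and 0.05 with median centring. Of 10 measured in FR, 4 were higher and 3 lower (40% and 30%, beside 28% and 27.9% of all genes). Their FR median was 0.01 and became -0.04 with median centring and -0.02 with the mean of all probes. Btg2, which marks progenitors about to form neurons, was 0.43 and 0.32 in FR and 0.18 and -0.08 in FD. Fezf2, which specifies deep layer neurons, was 0.46 and 0.04 in FR. Cux1, a factor of upper layer neurons, was 0.28 and 0.22 in FD and 0.22 and 0.20 in FR. None passed 1.5-fold in either diet.

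**Figure D5:**
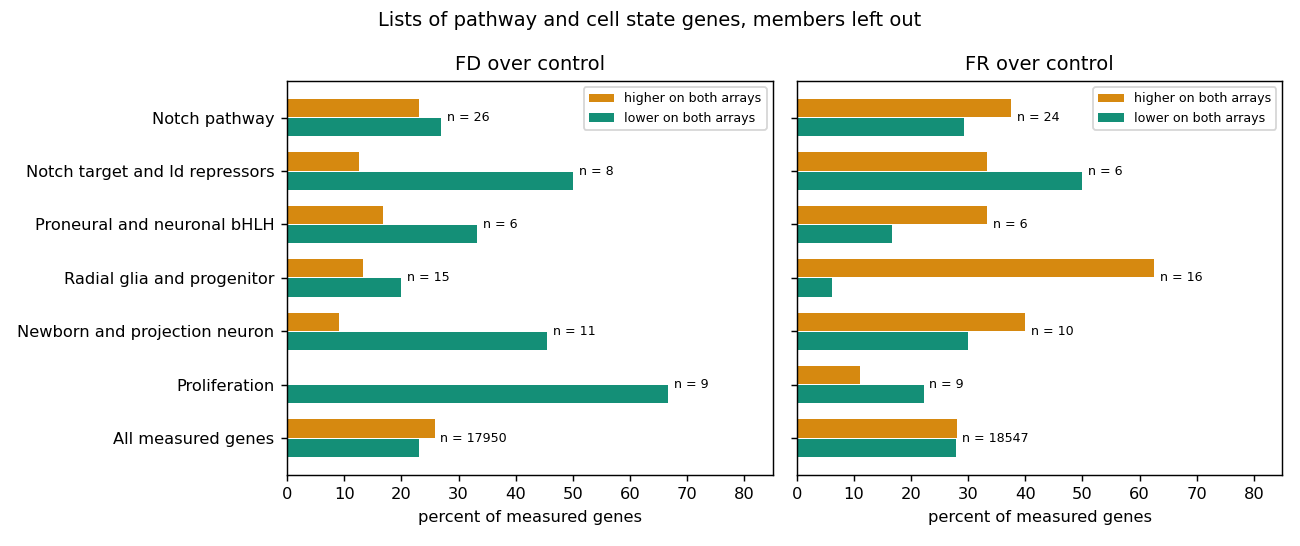
Percent of the measured genes of 6 lists, and of all measured genes, that were higher (orange) or lower (green) than control on both arrays, for FD on the left and FR on the right; n is the number measured. Radial glia and progenitor genes were mostly higher in FR (62.5%) and proliferation genes mostly lower in FD (66.7%).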

How the data were processed

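Fetal brain RNA was measured on 4 Agilent arrays in 2 colours, with probes of 60 bases. The scanner files were made with Agilent Feature Extraction 9.5.3.1, per the submitters' processing notes. Per the file headers they hold mean spot intensity and median local background in both channels, a processed log10 ratio (red over green, corrected for background and dye by the software), and other values, flags of 0 or 1 for outliers and for signal well above background. The value table the authors deposited proved to be log2 of treated over control, equal to the scanner ratio on bright spots. How it was made for dim spots is unknown, and its column medians were -0.03, 0.03, -0.03 and 0.01.

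In limma 3.58.1 (R 4.3.3), the deposited intensities were background-corrected by normexp with an offset of 50, which draws dim ratios towards 0, and normalised by loess array by array. Channel levels were taken after Aquantile normalisation. Left out were control spots, outlier-flagged spots (1682 to 3607 per array) and spots of bright background. The last are spots whose local background exceeded 2 times the array median (3, 0, 0 and 42 on FD arrays 1 and 2 and FR arrays 1 and 2). Flagged and bright-background spots were both left out before normexp, so keeping either kind refits the array. Fits that keep the bright-background spots (normexp on all spots) or the flagged spots are alternatives. Spots of a probe were averaged, and the brightest measured probe stands for a gene. Of 41174 probes, 26910 were named by accession, 5088 by current and 816 by older symbol in the mouse reference table, and 8360 kept the name in the file. Coordinates are those of the arrays, on mm9, except the promoter. The ratio of each gene was set against 0, and genes were counted at 1.5-fold, at 1.2-fold and by sign on both arrays. Each condition is 1 pool, so no test was run. From each list, genes past 1.5-fold or else up to 4 by absolute ratio in either diet are named, except some that are not reported here. 2 probes known by their description are shown beside the members. The calculation was tested on simulated data. Members, lists, rules and the exclusion of bright background were chosen with earlier results of these data known.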

Additional observations from a re-analysis of the deposited data

Results flagged for a closer look

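Among the members and the genes named from the lists, 4 had every FD array on one side of 0 and every FR array on the other by the same probe. Id2 had that pattern only across different probes, with -0.05 and -0.29 in FD and 0.15 and 0.15 in FR. Its probe measured in both diets differed between them by -0.15 and 0.04. The share of all genes with that pattern was not counted, so the 4 cannot be called unusual. The same sign on both arrays was common among all genes, with 25.8% higher and 23.1% lower in FD and 28% and 27.9% in FR. Notch1 differed by -0.41 between diets, with a mean log2 ratio of -0.14 in FD and 0.27 in FR, and Neurog2 by -0.40, with -0.20 in FD and 0.20 in FR. Among other genes of the pathway lists, Mfng differed by -0.40 (-0.04 in FD and 0.36 in FR) and Insm1 by -0.34 (-0.13 in FD and 0.21 in FR). The difference was not tested for any of them, since each diet is 1 pool. Notch1 on FD array 2 was only -0.01, and its probe on 1 spot read 0.10 there. The further probe described as similar to neurogenin 2 differed by 0.07 and did not share the sign of the named one. Other list genes share the pattern at a smaller size, also the other way, as Hey2 does (0.07 in FD and -0.11 in FR), a gene named after its values were seen.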

How the results depend on the processing

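In FD and FR, the count of members past 1.5-fold was 0 under every alternative. Of 128 member values under settings other than a left-out array, 120 moved by less than the SD between arrays and 4 turned sign: Sox2 to 0.00 and Pax6 to 0.01 in FD and Eomes to -0.02 in FR with median centring, and Hes1 to -0.03 in FR with normexp on all spots. With 1 array left out, 4 of 32 turned, Hes1 (0.08) and Pax6 (0.04) in FD and Hes1 (-0.07) and Eomes (-0.18) in FR. Hes5 in FR ranged from -0.55 to -0.42 and Nes in FD from -0.25 to -0.14. Median centring, which leaves the dye bias of bright and dim spots in each array, gave medians of -0.053 for FD, 0.045 for FR and -0.11 for FD minus FR, with 0 members lower and 0 higher on both arrays in FD and in FR, and 2 lower for FD minus FR. In that difference Nes became 0.01 and Dll1 0.08. The scanner ratio and the deposited table gave 0.15 for FR and -0.24 for FD minus FR. Normexp on all spots gave -0.14 for FD minus FR, and keeping outlier-flagged spots gave -0.13, each with 1 member higher on both arrays. The cause was not tested. Single arrays gave medians of -0.12 to -0.086 in FD, 0.038 to 0.10 in FR and -0.18 to -0.15 for FD minus FR. In FD, 2 members were higher on either array alone. In the difference, array 1 alone had 1 higher and 1 past 1.5-fold, array 2 alone 0 of each. Without array 1, Notch1 in FD was -0.01 and its difference between diets -0.15. The number of arrays and the single pool limit the precision. No paired analysis was possible because each diet is 1 pool and its array numbers mark only the dye orientation.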
